A study of Helianthus annuus with 9 samples.

Results

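Circular RNA (circRNA) found in both early and late sunflower seeds were taken from a table of 3482 circRNA. Members were chosen by the measured signal: a circRNA was counted as shared when it was above 0 in at least 1 day 7 library and in at least 1 of the 6 libraries of day 22 and day 37. The rule left 545 circRNA, 15.7% of the table. A core set of 81 of these, 14.9%, was above 0 in at least 2 libraries of each of the 3 days. The seeds were of Helianthus annuus line L-1-OL-1, a line high in oleic acid that was grown in the field without treatment. They were taken at day 7, day 22 and day 37, with 3 libraries of ribosome-depleted total RNA per day and 9 in all, and no other line or treatment was included. The event from which the days count is not stated in the labels. Separate plants or pools behind the 3 libraries of each day are not described either, and every p-value therefore measures a spread between libraries that may be technical.

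A circRNA forms when the splicing machinery joins the end of an exon back to the start of the same exon or of one upstream, which closes the RNA into a ring. Without free ends the ring escapes the enzymes that degrade linear RNA from its ends, and it can last longer than the mRNA of its host gene. Rings are counted by reads across the back-splice junction, and each is named here by the joined start and end, whose distance is called the span. The span includes any introns between the joined exons. Positions are given as the files write them, and their genome build is not named in the labels or headers.

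The circRNA signal had no stated unit. In each library every value was 0 or a multiple of 1 step, between 9.47 and 14.5, and the lowest value above 0 was 2 steps, 19 to 29. The depth of the libraries is unknown. The libraries numbered 3 of both late days stood apart, with 319 circRNA above 0 on day 22 and 205 on day 37, against 396 to 697 in the other late libraries and 1111 to 1237 on day 7. Of the core set, 53 had their lowest day 22 value and 73 their lowest day 37 value in library 3. Counts and shares on the late days are given with these libraries and, where the text names it, without both of them. The libraries hold whole seeds, so fewer cells of a type and less RNA per cell cannot be told apart.

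Most shared circRNA were not seen on every day. On all 3 days 222 were above 0, 178 were on day 7 and day 22 but at 0 in all day 37 libraries, and 145 were on day 7 and day 37 but at 0 in all day 22 libraries. All 3 day 7 libraries held 256 of the 545, 2 of them held 117 and 1 held 172. At the other side, 228 were in a single late library and 28 were in all 6. Only 27 of the 545 were above 0 in all 9 libraries.

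The rule admits any value above 0, so its edge lies at the lowest values. Of the shared circRNA, 112 were seen in a single day 7 library and a single late library, and 25 of these were at the lowest value of the library in both. Just outside the rule, 142 circRNA were in all 3 day 7 libraries and no late one, and 30 were in at least 4 of the 6 late libraries and in no day 7 library. High levels also fell outside it. The highest mean on day 7 among circRNA seen on that day alone was 47016.3, and the highest mean over the 6 late libraries among those seen late alone was 18115.7.

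The number of shared circRNA above 0 was 375, 382 and 417 in the day 7 libraries, 295, 211 and 149 on day 22, and 295, 234 and 73 on day 37. All day 7 libraries were above the late ones, a contrast the rule used and for which no test was made. Between the late days the values overlapped, at 200.7 ± 114.7 on day 37 and 218.3 ± 73.3 on day 22 (SD, n = 3 each; difference -17.7, exact two-sided permutation p = 1, where 0.1 is the smallest p that 3 against 3 libraries allow). This difference turned to 46.2 without day 37 library 3 and to 20.7 without day 22 library 1. Of the 81 core circRNA, 76, 75 and 80 were above 0 on day 7, 78, 71 and 60 on day 22, and 78, 79 and 45 on day 37.

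**Figure D1:**
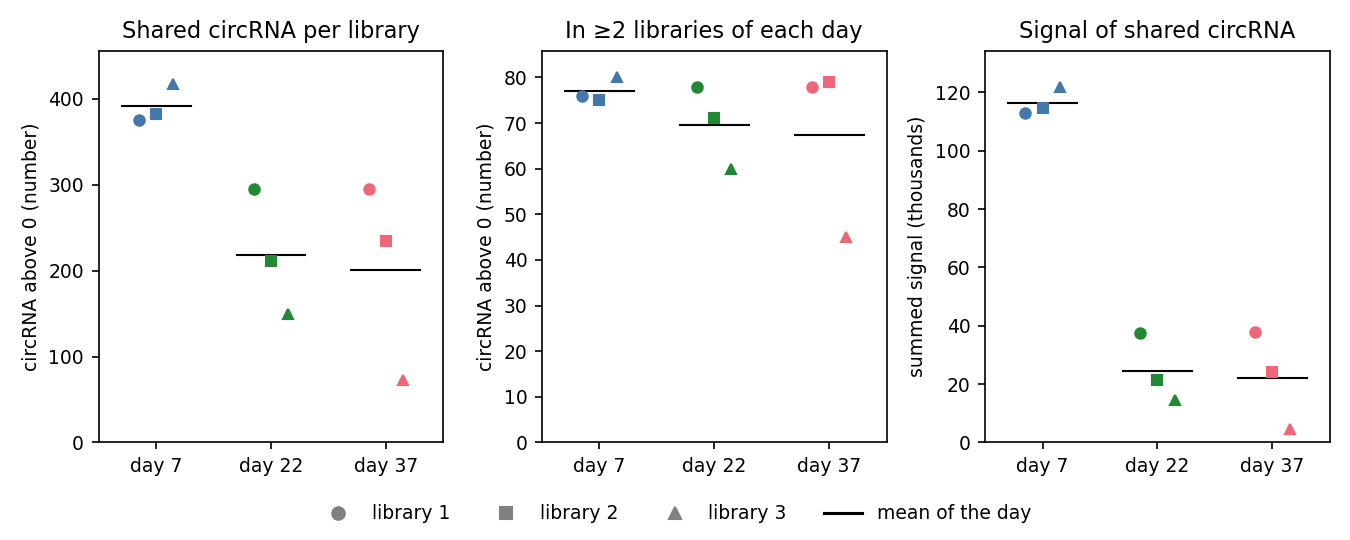
Points are single libraries at day 7, day 22 and day 37 on the horizontal axis, and lines are the mean of 3 libraries. The vertical axes show the number of shared circRNA above 0, the number of the core set above 0, and the summed signal of shared circRNA in the scale written on the axis. Library 3 is the lowest on both late days in all 3 plots, and the core set stays at 71 or more in the other late libraries.

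The summed signal of the shared circRNA was 112833, 114685 and 121995 on day 7, 37558, 21471 and 14570 on day 22, and 37793, 24207 and 4512 on day 37. As a share of all circRNA signal this was 29.8 ± 1.09% on day 7 (SD over 3 libraries), 62.9 ± 12.4% on day 22 and 30.8 ± 7.84% on day 37. The shares of the late days did not overlap, at 38.5%, 31.0% and 22.8% on day 37 and 48.6%, 68.8% and 71.2% on day 22 (exact permutation p = 0.1, the smallest possible). Without both libraries numbered 3 the means were 34.7% on day 37 and 58.7% on day 22. Much of the day 37 signal belonged to a single circRNA outside the shared set. It lies at NC_035444.1:76408941-76438063 and held 45.5%, 53.3% and 54.5% of the day 37 signal, against 15.0% in day 22 library 1 and 0% in the other day 22 libraries. With it left out, a setting chosen after the data were seen, shared circRNA held 62.3 ± 10.9% on day 37 and 65.7 ± 7.52% on day 22 (exact permutation p = 0.6), and 68.5% and 62.95% of these days' signal in libraries 1 and 2 alone.

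In the deposited scale most shared circRNA were highest on day 7, and this depended on the scaling. Day 7 had the highest of the 3 day means for 445 of the 545 and for 64 of the core set, day 22 for 32 and 4, and day 37 for 68 and 13. In the core set the median ratio of day means was 0.260 for day 22 over day 7 and 0.305 for day 37 over day 7. Median-of-ratios scaling was set on the 27 circRNA above 0 in all libraries. It left day 7 highest for 268 of the 545 and 35 of the core set and brought the ratios to 0.861 and 0.858. All 27 belong to the core set, so this scaling draws the core ratios toward 1 by its making. It cannot show whether the core set changed. Without both late libraries numbered 3, day 7 was highest for 382 of the 545 and 59 of the core set, with ratios of 0.297 and 0.404. Membership needs a value above 0 on both sides of this contrast, so these levels are a description. All day 22 values were below all day 7 values for 209 of the 433 shared circRNA above 0 in at least 3 libraries and for 53 of the core set. Over the 645 circRNA above 0 in at least 3 libraries this held for 54.4%. Of these 645, 142 were in all 3 day 7 libraries and no late one, so they count as lower by selection. The shares of the 645 given here are therefore no independent background. All day 37 values were below all day 7 values for 193 shared circRNA and 41 of the core set, against 51.9% of the 645. With median-of-ratios scaling these counts were 108 and 12 for day 22, against 38.8% of the 645, and 140 and 22 for day 37, against 43.7%.

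The highest mean over 9 libraries belonged to the core circRNA at NC_035449.1:21207147-21211361, with a span of 4214 bases. Its signal was 5492, 6867 and 6859 on day 7, 1893, 1176 and 883 on day 22, and 335, 192 and 114 on day 37. Values of the 3 days did not overlap, and each later day was below the one before. The circRNA at NC_035447.1:3878931-3898001, with a span of 19070 bases, had 3717, 4699 and 5155 on day 7, 572, 399 and 259 on day 22, and 408, 525 and 85 on day 37. Its late days overlapped. The one at NC_035449.1:193973950-194056741, the longest of the core set at 82791 bases, had 2963, 3817 and 4015 on day 7, 583, 439 and 202 on day 22, and 167, 182 and 0 on day 37. Every day 37 value was below every day 22 value here.

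The second highest mean belonged to NC_035433.1:5943489-6000329, with a span of 56840 bases, which was highest on day 22. Its signal was 2236, 2443 and 2686 on day 7, 5055, 2870 and 3264 on day 22, and 2824, 1241 and 511 on day 37. It had the highest mean of all shared circRNA on both late days. Every day 22 value was above every value of the other days, by a narrow margin in day 22 library 2.

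Other circRNA among the 10 highest of the core set had short spans. The circRNA at NC_035448.1:77572132-77572742, 610 bases, had 1244, 1113 and 1213 on day 7, 281, 269 and 173 on day 22, and 1715, 1312 and 388 on day 37. Every day 37 value was above every day 22 value. The one at NC_035446.1:43154968-43155998, 1030 bases, had 1370, 1099 and 1718 on day 7, 322, 159 and 67 on day 22, and 889, 676 and 57 on day 37. Its libraries 1 and 2 were higher on day 37 than on day 22, and library 3 was not. At NC_035441.1:602243-602782, 539 bases, the signal was 811, 954 and 1184 on day 7, 770, 269 and 211 on day 22, and 920, 696 and 180 on day 37. Its day 22 values were all below those of day 7, and its day 37 values overlapped both days. At NC_035448.1:97904836-97905224, 388 bases, it was 2138, 2602 and 2195 on day 7, 1175, 488 and 451 on day 22, and 1119, 515 and 151 on day 37. Late days overlapped in this case, and both lay below day 7.

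All day 22 values were above all day 7 values for 3 of the 81 and 6 of the 433, against 3.1% of the 645. These 645 include 70 seen late alone, which are at 0 on day 7 and can count as higher but never as lower. The shares of the 645 in this paragraph are therefore no independent background. In number, 20 of the 645 were higher on day 22 and 21 on day 37, with those of the 433 among them. All day 37 values were above all day 7 values for 1 of the 81 and 2 of the 433, against 3.26%. Without both late libraries numbered 3 this was 11 of the 81 and 23 of the 433 for day 37, against 9.15%, and with median-of-ratios scaling 16 and 21, against 6.2%. The 3 core circRNA higher on day 22 were the one with a span of 56840 bases described above and those at NC_035443.1:22519684-22542214 and NC_035436.1:4264057-4267142. The circRNA at NC_035443.1:22519684-22542214, 22530 bases, had 84, 0 and 58 on day 7, 967, 668 and 528 on day 22, and 126, 101 and 28 on day 37. It peaked on day 22, where its mean was the third highest of all shared circRNA. The circRNA at NC_035436.1:4264057-4267142, 3085 bases, had 84, 130 and 58 on day 7, 614, 319 and 374 on day 22, and 816, 515 and 151 on day 37. In the deposited scale it was the single core circRNA above day 7 in every library of both late days.

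**Figure D2:**
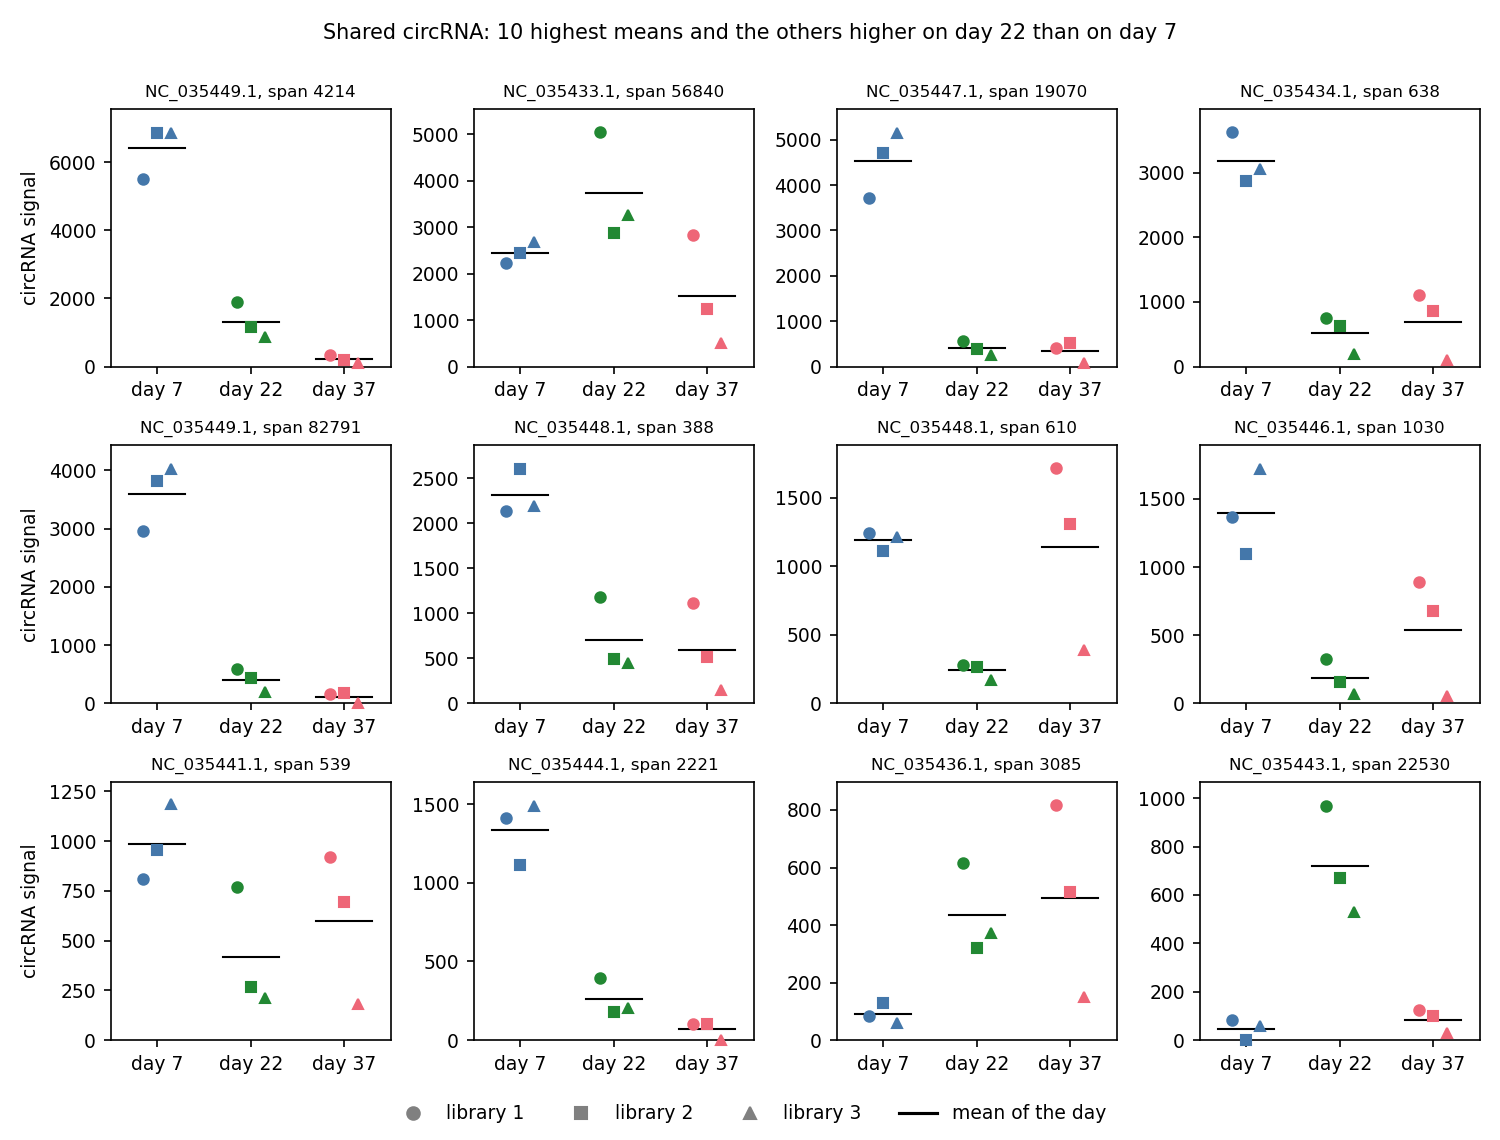
Each panel shows 1 core circRNA, named by its sequence and span in bases, with the signal of single libraries on a linear vertical axis that starts at 0 and the day on the horizontal axis. Lines are means of 3 libraries. The first 10 panels hold the highest means over 9 libraries, of which 9 have their highest day mean on day 7, and the last 2 hold the other core circRNA that were higher on day 22 than on day 7 in every library.

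Day 37 against day 22 is the contrast that the rule for shared circRNA did not use, since it pools the late days. The core rule does use each late day, as it needs at least 2 libraries above 0 on both. Signals were compared as log2(signal + 19) in limma, with a call at a Benjamini-Hochberg adjusted p under 0.05 over all circRNA tested and an absolute log2 difference of at least 1. Of the 545 shared circRNA 433 were above 0 in at least 3 libraries and were tested. Lower calls were made for 22 of them, 5.08%, and higher calls for 2, 0.462%. Over the 645 circRNA tested these shares were 4.5% and 0.775%. The 645 hold the shared 433 themselves and 142 at 0 in every late library, which cannot be called here. Shares and medians over the 645 are therefore no independent background for the late contrast, here and below. In the core set 3 of 81 were called lower and none higher in limma, while 11 had an unadjusted p under 0.05, against 79 of the 645. The core rule leaves out circRNA at 0 throughout a late day, so its calls are a description.

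The number of calls in this contrast changed with the scaling and with 1 library. Without day 37 library 3 the 433 shared circRNA had 21 higher and 20 lower calls, against 27 and 27 over the 634 circRNA tested. With median-of-ratios scaling there were 10 higher and 37 lower calls, and with quantile normalization 13 and 35. Over the 645 these were 17 and 44, and 19 and 42. The core set had 49 circRNA with a higher mean on day 37 than on day 22 and 32 with a lower one. With median-of-ratios scaling this became 38 higher and 43 lower, and without both late libraries numbered 3 it was 54 higher and 26 lower. The direction of the core set thus turned with a scaling that 27 of its own members set.

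All 22 circRNA called lower were above 0 in the 3 day 22 libraries, and 19 of them were at 0 in all 3 day 37 libraries, so no fold is given for these. The circRNA at NC_035443.1:139000695-139021809, 21114 bases, had 0 in each day 37 library against 811, 548 and 374 on day 22 and 2627, 2790 and 2888 on day 7 (limma adjusted p = 0.000367). The circRNA at NC_035435.1:137950409-137956288, 5879 bases, was also at 0 on day 37, against 510, 369 and 221 on day 22 and 3843, 4496 and 4058 on day 7 (limma adjusted p = 0.000677). Both were high in every day 7 library. At 0 on day 37 were likewise NC_035439.1:97131927-97135718, with 531, 319 and 154 on day 22, and NC_035443.1:25748174-25764627, with 333, 279 and 154 (limma adjusted p = 0.00226 and 0.00088). The fifth by size, NC_035441.1:129379524-129381555, had 312, 179 and 134 on day 22 and 0 on day 37 (limma adjusted p = 0.00248). Day 7 had 21 of the 22 in all its libraries, and 18 of the 22 had a lower mean on day 22 than on day 7.

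The 3 core circRNA called lower had some signal on day 37, as the core rule of at least 2 libraries per day requires. The one with the highest mean of all, with a span of 4214 bases, averaged 213.7 ± 112.1 on day 37 and 1317.3 ± 519.6 on day 22 (SD, n = 3 each), a log2 difference of -2.57 ± 0.44 (SE; limma adjusted p = 0.0128). At NC_035435.1:137948167-137954574, 6407 bases, the signal was 0, 30 and 28 on day 37 and 333, 279 and 163 on day 22, a log2 difference of -2.92 ± 0.45 (SE; limma adjusted p = 0.00824). At NC_035444.1:1758143-1759457, 1314 bases, it was 0, 50 and 19 on day 37 and 270, 269 and 163 on day 22 (log2 difference -2.75 ± 0.50, SE; limma adjusted p = 0.0163). In all 3 the values of the days did not overlap.

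The 2 circRNA called higher were not in the core set. NC_035441.1:175873817-175874185, 368 bases, had 178, 222 and 76 on day 37 and 0, 20 and 0 on day 22, against 56, 0 and 29 on day 7 (limma adjusted p = 0.0432). NC_035448.1:96299052-96301304, 2252 bases, had 94, 40 and 38 on day 37 and 0 in every day 22 library, against 98, 29 and 43 on day 7 (limma adjusted p = 0.036). Called or not, all day 37 values were above all day 22 values for 9 of the 433 and below them for 42, against 2.48% and 7.75% of the 645. In the core set these numbers were 4 and 8, and the 8 include the 3 called lower. Without both late libraries numbered 3, with 2 libraries a day, they were 93 and 65 of the 433 and 31 and 10 of the core set, against 17.2% and 11.9% of the 645. The 4 core circRNA higher throughout had spans between 537 and 1447 bases. One of them, NC_035436.1:173720368-173720905, had 1067, 515 and 123 on day 37 and 114, 80 and 106 on day 22.

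Long circRNA made up a share of the shared set that was lower in every day 37 library than in any day 22 library. The shared circRNA ran from 100 bases, at NC_035447.1:89696514-89696614, to 99474 bases, at NC_035440.1:66616478-66715952, with a median of 892 and quartiles of 374 and 2276. By span, 184 were under 500 bases, 207 had 500 to under 2000, 83 had 2000 to under 10000 and 71 had 10000 or more. Of the shared circRNA above 0 in a library, those of 10000 bases or more made up 15.2%, 14.1% and 12.7% on day 7, 17.6%, 17.5% and 20.8% on day 22, and 8.14%, 7.69% and 10.96% on day 37. Values of day 37 and day 22 did not overlap, with 8.93 ± 1.77% on day 37 and 18.7 ± 1.86% on day 22 (SD, n = 3 each; difference -9.73, exact permutation p = 0.1, the smallest possible). In numbers, 24, 18 and 8 long circRNA were above 0 on day 37 and 52, 37 and 31 on day 22.

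Libraries 1 and 2 alone gave 7.91% on day 37 and 17.6% on day 22. The spans of 500 to under 2000 bases were at 44.1%, 47.9% and 45.2% of shared circRNA above 0 on day 37 and 32.9%, 28.9% and 30.9% on day 22 (exact permutation p = 0.1). Both span measures were chosen after the data were seen. Outside the shared set the share of long circRNA overlapped between the days, at 8.71%, 14.04% and 28.8% on day 37 and 21.0%, 28.7% and 27.7% on day 22 (exact permutation p = 0.4). Whether the shared set differs from the others in this was not tested.

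Taken circRNA by circRNA, the direction differed between span classes. Of the 58 tested circRNA of 10000 bases or more, 49 had a lower mean on day 37 than on day 22 and 9 a higher one, with 6 called lower and none higher in limma. Of the 161 with 500 to under 2000 bases, 47 had a lower mean and 114 a higher one, with 4 called lower and none higher. Lower calls came to 10.3% and 2.48% of these classes, against 4.5% of all circRNA tested. With 2000 to under 10000 bases 8 of 71 were called lower, 11.3%, and under 500 bases 4 of 143, 2.8%, with 1 higher call in each of these classes. The median log2 differences of the long and mid-span classes were -0.80 and 0.47, against 0.00 over all 645 circRNA. These 645 include the 142 at 0 in every late library. The 143 of under 500 bases had a median of -0.20, and the 71 with 2000 to under 10000 bases one of -0.05. Without the late libraries numbered 3, 47 of the 58 long and 38 of the 161 mid-span circRNA had a lower mean. With median-of-ratios scaling 49 and 56 did. Outside the shared set, 28 circRNA of 10000 bases or more were seen late alone and in at least 3 libraries. Of these, 18 had a lower mean on day 37 than on day 22 and 10 a higher one. Without the late libraries numbered 3 these numbers were 14 and 12. On day 37 32 of the 58 long circRNA were at 0 in every library, against 3 of them on day 22. The longest shared circRNA, at 99474 bases, had 238, 188 and 188 on day 7, 166, 80 and 38 on day 22 and 0 on day 37. It was called lower (limma adjusted p = 0.0141).

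**Figure D3:**
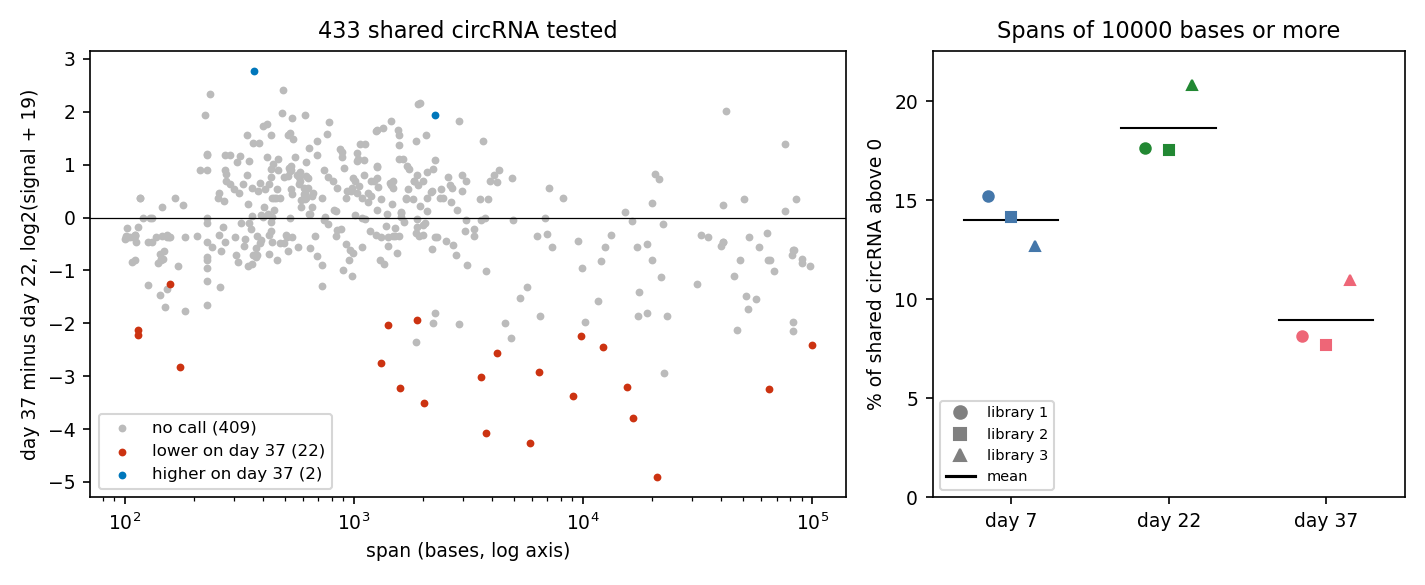
In the scatter plot each point is a shared circRNA, with its span in bases on a log axis and the fitted day 37 minus day 22 difference of log2(signal + 19) on the vertical axis. Lower calls are red and higher calls blue. In the plot by day the points are libraries, and the vertical axis is the percentage of shared circRNA above 0 with a span of 10000 bases or more. Day 37 libraries lie at 7.69 to 10.96% and day 22 libraries at 17.5 to 20.8%.

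The median span was 892 bases for the shared circRNA and 982 for the core set, against 503 for the 1773 seen on day 7 alone and 784.5 for the 1164 seen late alone. Among circRNA in at least 3 libraries the medians were 960, 613 and 6623.5 for shared, day 7 alone and late alone. Shared circRNA were listed on 17 chromosome-scale sequences and 1 other sequence, and made up 9.28% to 20.5% of the circRNA of each chromosome-scale sequence.

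Ends were set beside the exon boundaries of the assembled transcripts. The deposited transcript assembly covers 4 sequences whole and part of another, which hold 132 of the shared circRNA and 22 of the core set. Both ends lay within 1 base of an assembled exon start and an assembled exon end for 32 of the 132, 24.2%, and for 9 of the 22 core circRNA, 40.9%. Of circRNA seen on day 7 alone 67 of 477 did so, 14.05%, and of those seen late alone 35 of 306, 11.4%. Among circRNA in at least 3 libraries it was 26 of 100 shared, 5 of 43 seen on day 7 alone and 5 of 28 seen late alone. These shares are given without a test. At spans from 500 to under 2000 bases both ends matched for 16 of 46 shared circRNA, against 39 of 157 seen on day 7 alone and 18 of 85 seen late alone. Of the shared starts that matched, 32 lay 1 base before the exon start and 5 on it, while all 39 matched ends lay on the exon end, so part of the starts may count from 0. With no base of tolerance only 4 of the 132 had both ends on boundaries, and with 5 bases the number stayed at 32.

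A start or an end in common with another circRNA of the table was found for 128 of the 545 shared circRNA, 23.5%, and for 29 of the 81 core circRNA, 35.8%. Among circRNA seen on day 7 alone it was 250 of 1773, 14.1%, and among those seen late alone 117 of 1164, 10.1%. Shared circRNA are in at least 2 libraries by rule, while 1401 of the 1773 and 973 of the 1164 were in 1 library. Within the shared set 54 circRNA formed 24 groups linked by common ends, of which 22 were pairs and 2 held 5 circRNA each.

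**Figure D4:**
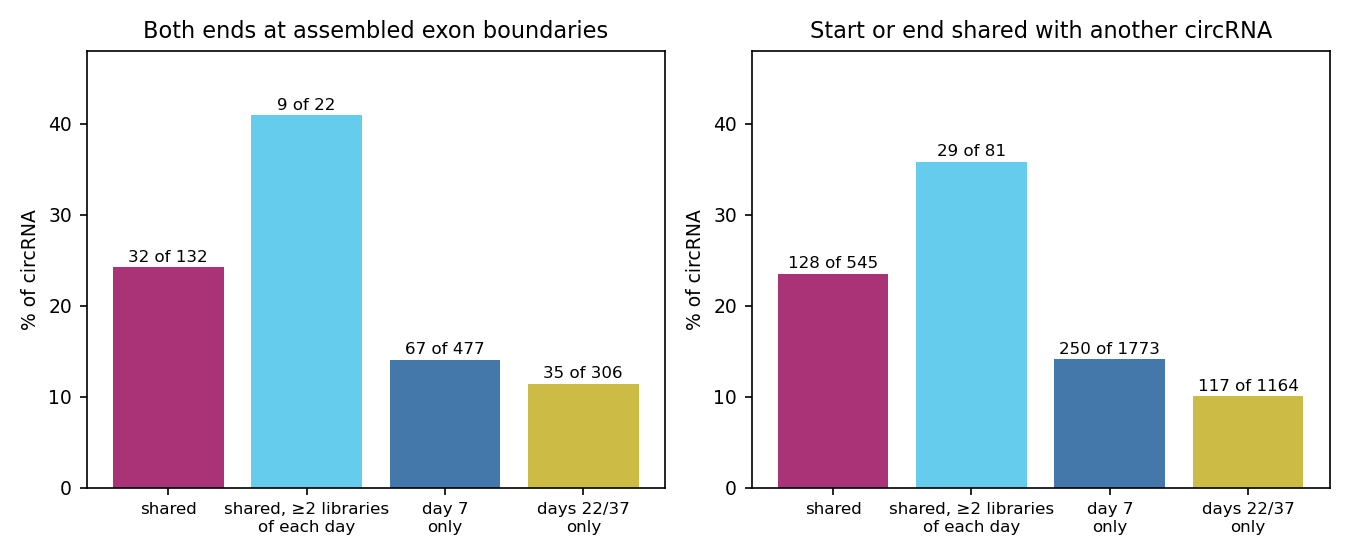
Bars give the percentage of circRNA in 4 sets, with the numbers above each bar, for both ends at assembled exon boundaries and for a start or end in common with another circRNA. The core set is part of the shared set, and shared circRNA are in at least 2 libraries by rule, which is not asked of the others. The shared circRNA reach 24.2% and 23.5%, and the core set 40.9% and 35.8%.

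Of the 2 groups of 5, 1 lies at NC_035433.1:5943489-6005403, and every circRNA linked there by common ends is shared. The most abundant joins 5943489 to 6000329, an exon end of LOC110942822, and its values are given above. The circRNA 5943490-5966863, which ends in LOC110942831, had 238, 173 and 202 on day 7, 208, 0 and 58 on day 22 and 0 on day 37. The other 3 were each above 0 in 2 libraries. Of these, 5967921-6005403 starts at an exon of LOC110942831 and ends at an exon of LOC110942861, 4 places apart in the gene order of the HanXRQr2.0-SUNRISE annotation. In the mRNA table LOC110942861 had 317.1 ± 18.8 FPKM on day 7 (SD over 3 libraries), 320.0 ± 62.0 on day 22 and 113 ± 59.7 on day 37, and LOC110942831 had 53.7 ± 4.45, 48.6 ± 12.4 and 25.7 ± 16.0 FPKM. FPKM, a fragment count divided by transcript length and library size, is the unit of that table.

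The other group of 5 lies at NC_035444.1:1758143-1762335. Its most abundant circRNA, 1758143-1760364 of 2221 bases, had 1411, 1113 and 1487 on day 7, 395, 179 and 202 on day 22 and 105, 101 and 0 on day 37. A second one, 1758143-1759457, has the same start and a nearer end. It held 36.1 ± 6.81% of the summed signal of the pair on day 7 (SD over 3 libraries), 48.4 ± 10.3% on day 22 and 44.4 ± 50.9% on day 37. Its day 37 shares were 0%, 33.1% and 100% (day 37 against day 22, exact permutation p = 0.8, and 0.8 after adjustment over the 2 pairs compared).

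Of the 44 shared circRNA with at least 1 end on an assembled exon boundary, 27 had both ends in 1 named gene, 4 in different genes and 1 in an unnamed locus, and 12 had 1 end only. The 27 came from 25 genes, of which 22 are protein-coding in the annotation. Where the exons between the ends could be counted, in 26 of them, these circRNA spanned a median of 3 exons, between 1 and 6, with a median of 518 bases without introns. In 4 of them both ends lay on the same exon. Their median span was 928 bases, while the 12 with a single matched end had a median of 22051.5. The gene table pairs no product names with these IDs, so their functions are not given.

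LOC110927324, a protein-coding gene, gave 2 core circRNA that share an end. The shorter, at NC_035434.1:178311462-178312100, spans 638 bases and 2 exons, and its signal was 3620, 2877 and 3061 on day 7, 759, 628 and 192 on day 22, and 1109, 858 and 104 on day 37. A longer one, at NC_035434.1:178311203-178312100, spans 897 bases and 3 exons and had 503, 1316 and 751 on day 7, 354, 140 and 125 on day 22, and 157, 111 and 28 on day 37. In all 9 libraries the shorter ring was the more abundant. It held 78.9 ± 9.67% of the pair's signal on day 7 (SD over 3 libraries), 70.2 ± 10.7% on day 22 and 85.0 ± 5.38% on day 37 (day 37 against day 22, exact permutation p = 0.2, and 0.4 after adjustment over the 2 pairs). The host gene had 3.36 ± 0.311, 1.52 ± 0.724 and 1.07 ± 0.944 FPKM on day 7, day 22 and day 37.

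The FPKM of host genes in the mRNA table is a readout that the rule did not use. Each host still has a circRNA above 0 on day 7 by the rule, a condition not set for the other features. Of the 25 host genes 21 were in the mRNA table, and 20 passed the filter of at least 1 FPKM in 3 libraries and were tested with limma on log2(FPKM + 1). For day 22 against day 7, 5 of the 20 fell and none rose, against 24.9% and 34.1% of the 36401 features tested. For day 37 against day 22, 6 fell and none rose, against 16.6% and 0.843%. For day 37 against day 7, 12 fell and none rose, against 38.8% and 39.4%. The 36401 include features low on day 7 that can hardly fall, so these shares are no independent background for the hosts. With a filter of at least 5 FPKM in 3 libraries, 10 of 11 hosts fell and none rose in this last comparison. Of the 15398 features kept by that filter, 10258 fell and 2883 rose. With the filter of 1 FPKM, the limma p was under 0.05 before adjustment for 10, 11 and 14 of the 20 hosts in the 3 comparisons, which share samples. Over the 36401 features it was so for 29177, 15021 and 32087. With median-of-ratios scaling the falls were 3, 3 and 6 and the rises 0, 1 and 0. That scaling shifts the median log2 difference of all features to 0.35, 0.42 and 0.37, against 0.09, 0.01 and -0.32 as deposited. With quantile normalization the falls were 2, 4 and 9 and the rises 0, 1 and 0.

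LOC110930260 fell in all 3 comparisons. It had 7.02 ± 0.645 FPKM on day 7 (SD over 3 libraries), 1.69 ± 0.464 on day 22 and 0.263 ± 0.115 on day 37, with log2 differences of -1.08 ± 0.19 for day 37 against day 22 (SE; limma adjusted p = 0.000821) and -1.59 ± 0.19 for day 22 against day 7 (limma adjusted p = 6.86e-06). It hosts the core circRNA with a span of 6407 bases that was called lower on day 37 and had 1020, 1027 and 1314 on day 7, whose start also matches an exon of the neighbour LOC110930261. The circRNA of 5879 bases that was at 0 on day 37 joins an exon of LOC110930260 to one of LOC110930261. The neighbour had 59.4 ± 1.55, 15.4 ± 6.51 and 3.73 ± 2.41 FPKM on day 7, day 22 and day 37. Circular and linear RNA of this locus were thus lower on each later day.

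LOC110936680 and LOC110936441 also fell in all 3 comparisons. LOC110936680 had 12.5 ± 0.607, 4.86 ± 1.26 and 0.983 ± 0.350 FPKM on day 7, day 22 and day 37 (SD, n = 3; day 37 against day 22, limma adjusted p = 0.000601). Its core circRNA, at NC_035436.1:90798336-90798729, averaged 148.3, 50.7 and 31 on the same days. LOC110935831 hosts a core circRNA of 52766 bases, at NC_035436.1:21725907-21778673, with 713, 1113 and 910 on day 7, 166, 150 and 163 on day 22, and 84, 61 and 0 on day 37. Its mRNA had 5.36 ± 0.551, 2.33 ± 0.797 and 1.03 ± 0.590 FPKM, and fell on day 37 against day 7 (log2 difference -1.69 ± 0.26, SE; limma adjusted p = 3.21e-05).

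In other hosts the circular and the linear RNA differed in their course. LOC110927248 fell on day 37 against day 22 (log2 difference -2.11 ± 0.43, SE; limma adjusted p = 0.00256), with 4.48, 6.02 and 1.43 FPKM on day 37 and 27.7, 17.7 and 13.1 on day 22. Its single-exon core circRNA, at NC_035434.1:175388749-175389085 with a span of 336 bases, had 523, 222 and 0 on day 37 and 270, 140 and 106 on day 22, against 1076, 593 and 679 on day 7. Values of the late days overlap for the circRNA and do not for the mRNA. LOC110935527 hosts the core circRNA of 3085 bases and 4 exons that was above day 7 in every late library. Its mRNA had 0.41, 0.07 and 0 FPKM on day 37 and 5.33, 3.02 and 0.66 on day 22, against 0.87, 0.84 and 0.81 on day 7. It did not pass the filter and was not tested.

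As a summary over hosts with a value in the mRNA or lncRNA table, the circRNA signal per host FPKM was higher on day 37 than on day 22 for 17 of 24 circRNA and lower for 7. With both tables scaled by median of ratios it was higher for 14 and lower for 10. For day 22 over day 7 it was higher for 6 of 25 and lower for 19, and with that scaling higher for 13 and lower for 12. Signal and FPKM are scaled to different totals, so these ratios give neither an order of the days nor a number of rings per mRNA.

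**Figure D5:**
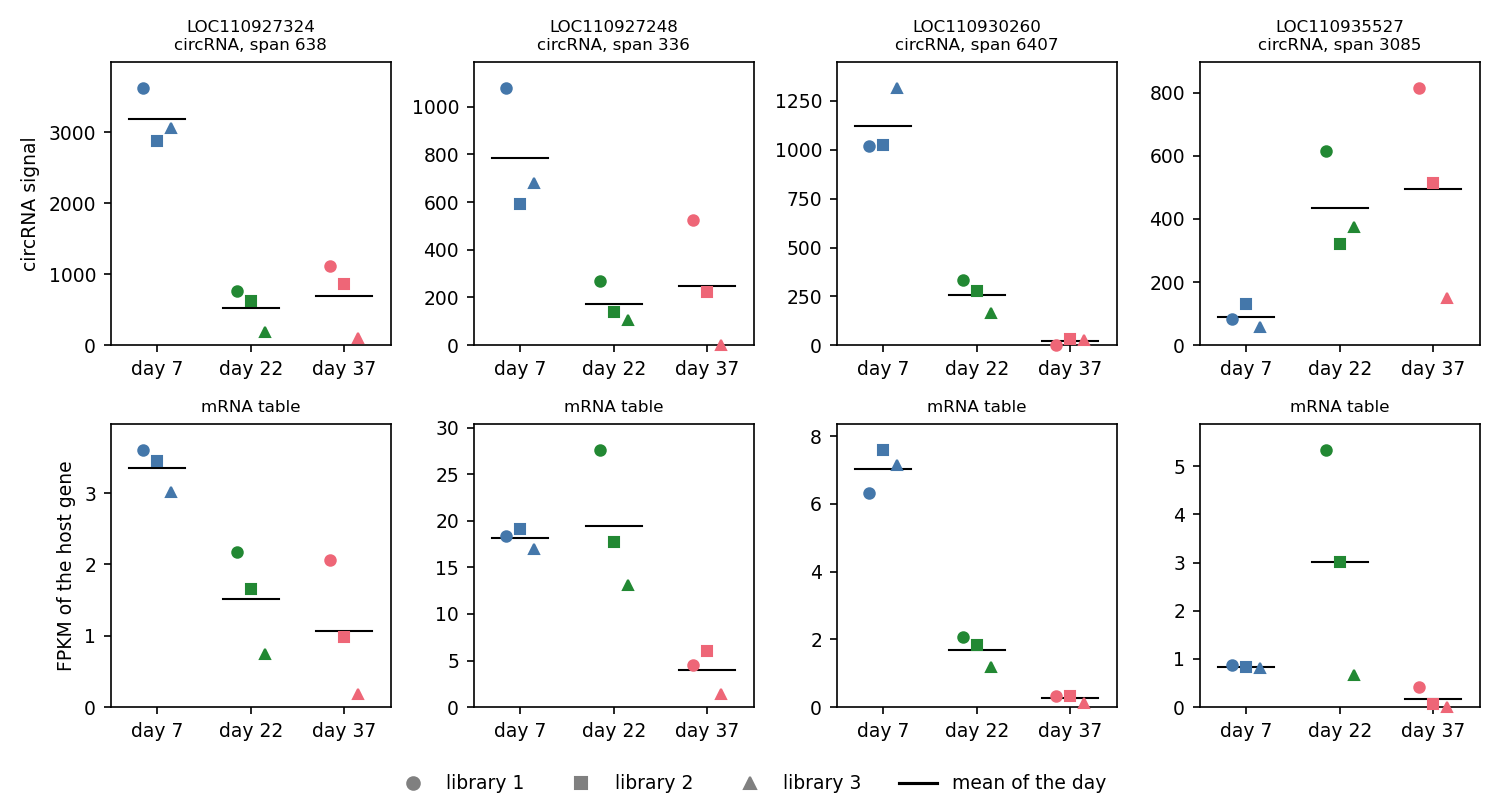
Upper plots show the signal of the most abundant shared circRNA of 4 host genes, and lower plots the FPKM of the gene in the mRNA table, with the day on the horizontal axis and linear vertical axes from 0. Points are libraries and lines are means of 3. In LOC110930260 both have lower means on each later day, while in LOC110927248 and LOC110935527 the linear RNA is lowest on day 37 and the circRNA is not.

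A span of exactly 228 bases was the commonest in the table and in the shared set. It was found for 30 circRNA of the table, of which 12 were shared, 13 were seen on day 7 alone and 5 late alone, and for 3 of the core set. The next commonest span among shared circRNA, 111 bases, was found 6 times. The 12 lie on 5 sequences, with 3 close together on NC_035436.1 and 4 close together on NC_035448.1, where 2 more overlap each other at a distant place. At NC_035448.1 the circRNA 29321631-29321859 is followed by 29321859-29322087, which starts where the first ends. At NC_035436.1 81196267-81196495 is followed in the same way by 81196495-81196723. The circRNA 81196495-81196723 and 81196440-81196668 have an end inside the assembled span of LOC110936586, which had 1444.9, 1527.03 and 1499.04 FPKM on day 7, 394.1, 316.5 and 214.6 on day 22, and 211.9, 162.1 and 36.8 on day 37.

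Levels within this group differed. The circRNA at NC_035448.1:106906488-106906716 had 140, 130 and 245 on day 7, 187, 169 and 29 on day 22, and 659, 454 and 19 on day 37. Another, at NC_035448.1:29321458-29321686, had 391, 622 and 318 on day 7, 94, 30 and 0 on day 22, and 21, 0 and 0 on day 37. Of these, the circRNA starting at 106906488 was highest in 2 day 37 libraries, and the one starting at 29321458 in the day 7 libraries. More broadly, the span was divisible by 3 for 93 of the 184 shared circRNA under 500 bases, 50.5%, and for 61 of the 207 with 500 to under 2000 bases, 29.5%. Among circRNA seen on day 7 alone the share under 500 bases was 440 of 883, 49.8%, and among those seen late alone 199 of 485, 41.0%. Overlapping circRNA of 1 locus may draw on the same reads, so their values are not independent.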

How the data were processed

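The 9 libraries of the circRNA table hold a scaled signal, deposited by the authors with no unit in the file header. The mRNA and lncRNA tables hold FPKM, per the file headers, and the exon positions come from the deposited assembly. The submitters' processing notes list DESeq2 1.4.5, RSEM 1.2.12, Bowtie2 2.2.5 and HISAT2 2.0.4, with no role given. The circRNA caller and its settings are not given in the sources used here, and depth is unknown. The members, lists, tests and alternatives were chosen with earlier results of these data known. Groups follow the labels.

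Tables were fitted whole, each in 1 fit of 9 libraries, with limma 3.58.1 (trended, robust) in R 4.3.3: log2(signal + 19), keeping circRNA with values above 0 in 3 or more libraries, and log2(FPKM + 1) for features of at least 1 FPKM in at least 3. Fold changes on these scales understate the change of low features. Since the lowest value was 2 steps, no read counts were taken from the signal, and the planned count tests were replaced by limma alone. An exact permutation test, two-sided, served for single values per library (scipy 1.17.1). The fits were tested on simulated data. A host gene has both ends of a circRNA within 1 base of its assembled exon boundaries, and symbols come from the RefSeq gene table of HanXRQr2.0-SUNRISE, in which all 25 hosts matched.

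In the mRNA table, deviations from the day means correlated between day 37 and day 22 at 0.77, 0.15 and 0.78 for equal numbers 1, 2 and 3. The day 37 libraries numbered 1 and 3 correlated best with their own number on day 22, and number 2 did not. With the replicate block, 8 hosts fell on day 37 against day 22 in limma. Named circRNA were those with the 10 highest means in the core set, the 3 highest on each day and the 5 largest calls in each direction. Up to 10 above 0 in all libraries and up to 10 with both ends in 1 locus were added. The text prints a part of these lists, with the richest loci and the longest and shortest circRNA. Core circRNA whose days did not overlap and those of 228 bases were named after their values were seen. Alternatives covered pseudocount, filter, scaling, block and libraries left out.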

Additional observations from a re-analysis of the deposited data

How the results depend on the processing

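For shared circRNA on day 37 against day 22 in limma, higher calls numbered 1 with a pseudocount of 9.5 or 50, with a filter of 5 libraries or with the replicate block, 10 and 13 with median-of-ratios and quantile scaling, and 8 without both late libraries numbered 3. Lower calls numbered 37 and 35 with these scalings. Leaving out 1 library gave 0 to 21 higher and 15 to 27 lower calls in the shared set, and 0 to 27 higher and 18 to 33 lower calls over the table. Over the table, higher calls were 3 with a pseudocount of 50, 1 with the filter of 5 libraries, 17 and 19 with the 2 scalings and 12 without both libraries numbered 3, and lower calls were 44 with median of ratios. Of the 24 circRNA called, 12 kept their call under every alternative in which they were tested, and none changed direction. The filter of 5 libraries left 23 of the 24 to be tested. The core set had 42 to 76 members with 1 library left out, which its rule of 2 libraries per day makes smaller. The difference in members above 0 per library, day 37 against day 22, ran from -64.8 to 46.2 with 1 library left out, and was 20.7 without day 22 library 1. The share of signal differed by -3.35 without the highest late circRNA and by 5.56 without it and both libraries numbered 3, and the long share by -12.5 with a limit of 5000 bases, all settings chosen after seeing the data. With no tolerance, 4 shared circRNA had both ends on exon boundaries. Host falls for day 22 against day 7, day 37 against day 22 and day 37 against day 7 were 3, 3 and 6 with median of ratios. With quantile normalization they were 2 for day 22 against day 7. In the deposited scale, counting any gene with a circRNA end inside its span, 33 genes were tested in place of 20, and 13 fell for day 22 and 24 for day 37 against day 7. For the hosts with both ends in 1 gene, falls with 1 library left out were 4 to 8, 3 to 10 and 11 to 15 in the comparisons named above. Rises of hosts on day 37 against day 22 were 1 with both scalings or without both libraries numbered 3, and 0 to 2 with 1 library left out. Of the 23 host calls, 10 were kept under every alternative in which they were tested. A filter of at least 5 FPKM left 18 of the 23 to be tested. The cause of these shifts was not tested. In the circRNA table the correlations of equal numbers were low, at 0.17, 0.06 and 0.24 for day 37 with day 22. Each day 37 library still correlated best with the day 22 library of its own number. With the replicate block 20 shared circRNA were called lower. The edgeR and DESeq2 fits listed beforehand were not run, since the signal gave no counts. Unknown depth limits every value at 0. The settings given for day means, days that do not overlap, span classes and signal per host FPKM were likewise added after seeing the data.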
